A study of Rattus norvegicus with 2 samples.

Results

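The interferon-stimulated and antiviral genes described here are 39 genes chosen by function, of 14217 genes that the array's annotation names. They comprise the kinases and transcription factors that carry the interferon signal, the sensors of viral RNA and the effectors that interferon induces. Some earlier results of these data were known when the genes were chosen. Members were found as all probe sets (groups of short probes summarised as 1 value) that the annotation assigns to exactly 1 of these genes. This gave 48 probe sets for 37 of the 39 genes, and Oas2 and Gbp5 had none. Ddx58 was matched through its present symbol in the annotation, Rig1.

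The RNA came from microglia of Sprague Dawley rats, the phagocytes that live in brain tissue. One group had been deprived of oxygen and glucose together (oxygen-glucose deprivation, OGD), a treatment used to imitate ischaemia in culture, over 3 h (1 array), and the other was left resting (1 array). Cells of both groups were grown in medium with fetal calf serum, and no genetic change or drug is named for either. The threshold set in the series was a change of 1.5-fold between OGD and resting cells. There were no replicates (1 array in each group), and every value below therefore describes these 2 arrays, with neither a test nor an error over cultures. The labels do not say how the cells were isolated or from how many animals they came.

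Type I interferons bind a receptor of the chains Ifnar1 and Ifnar2, which activates the kinases Jak1 and Tyk2. Stat2 then acts with Irf9 in a complex that binds interferon-stimulated response elements and induces antiviral genes. In the brain microglia are known both to make type I interferon and to respond to it, and Irf7 is itself induced and amplifies the response.

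A gene was represented by its brightest probe set, and was called measured when that probe set lay above the array median (the floor) on at least 1 array. The floor was an intensity of 19.7 on the OGD array and 19.6 on the resting array. Differences are log2 OGD minus log2 resting, with values under the floor set to it. Of the 37 genes with a probe set, 21 were above the floor on both arrays, 2 on the resting array only, 1 on the OGD array only and 13 on neither. Thus 24 interferon genes were measured, beside 9580 genes in all.

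On the OGD array 0 of these 24 genes were higher and 1, Apol9a, was lower by at least 1.5-fold. Over all measured genes 0.0731% were higher and 0.0418% lower by that factor, which is 0.115% in either direction. Smaller differences lay on both sides of 0, with 15 of the 24 genes lower on the OGD array, where 51.3% of all measured genes were lower, and 9 higher, where 42.8% were higher. The median difference of the 24 genes was -0.089, against -0.0076 over all measured genes. Of the 21 genes above the floor on both arrays, 4 differed by 1.2-fold or more, with Isg20, Rsad2 and Tyk2 lower and Ifit1 higher, and 7.48% of all such genes passed 1.2-fold. Results for Apol9a, Isg20, Rsad2 and Ifit1 were known beforehand, so these counts are not independent of the data.

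**Figure D1:**
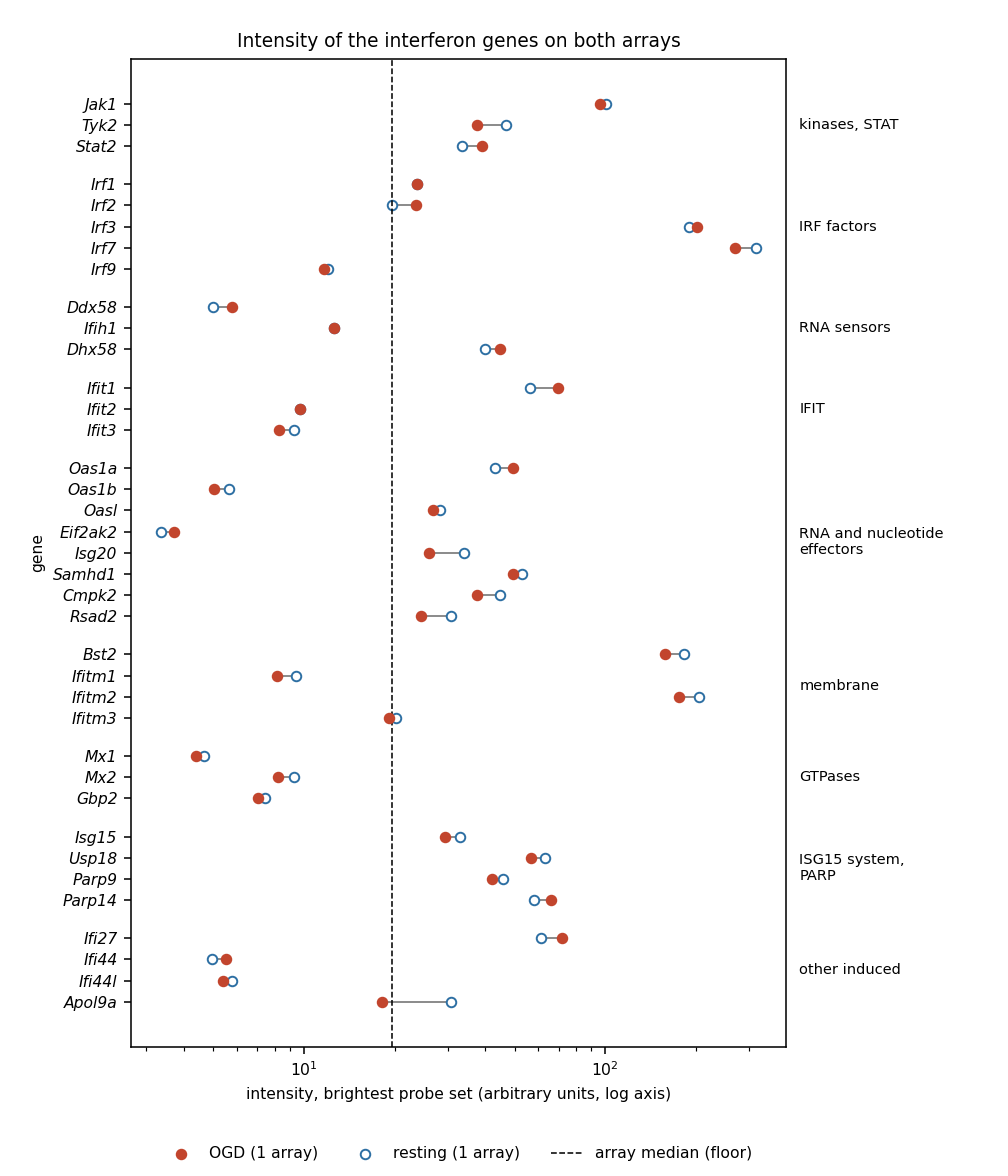
Intensity of the brightest probe set of each of the 37 interferon genes with a probe set, on a log axis, with the OGD array as filled and the resting array as open points, and the array median as a dashed line. The 13 genes left of the line on both arrays include all 3 genes shown as GTPases, and Apol9a crosses the line, at 18.1 on the OGD array and 30.8 on the resting array.

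Because these genes are grouped by their response to interferon, their promoters were examined for the sequence through which that response acts. RefSeq promoters of assembly GRCr8, from 250 bases before to 50 bases after the annotated start, were held for 27 of the 39 genes. The other 12 could not be searched, and include the measured genes Ifit1, Tyk2, Isg15, Usp18, Dhx58, Jak1 and Irf2. A core of the interferon-stimulated response element, 2 copies of GAAA with any 2 bases (NN) between them, was searched on both strands and was found in 18 of these 27 promoters (66.7%). It was found in 3.92% of all 33469 promoters of that length. Of 25 matches, 20 began within 100 bases before the start. A pair of overlapping matches stood in 4 promoters (Apol9a, Bst2, Oas1a and Oas1b), and 7 promoters had 2 matches. The site of STAT dimers, TTC and GAA with any 3 bases (NNN) between them and the same on both strands, was found in 9 of the 27 promoters (33.3%) and in 8.87% of all promoters. Both motifs were found in 6 promoters and overlapped in 1. The genes with a response element match did not lie on 1 side of 0. Of the 10 that were measured, 7 had lower and 3 had higher values after OGD, beside 51.3% and 42.8% of all measured genes. Over these 10 the median difference was -0.21 and the range -0.65 to 0.23. Of 7 measured genes whose window held no match, 4 were lower and 3 higher, with a median of -0.076. For the STAT site the medians lay the other way round, at -0.020 over 6 measured genes with a match (3 lower and 3 higher) and -0.22 over 11 without one (8 lower and 3 higher). A match is a string of letters and was not tested as a binding site, and no difference among these medians was tested.

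The promoters below are those of the 4 measured genes with a match that were lowest and the 2 that were highest on the OGD array, shown because they carry the same element beside differences of opposite sign. Each runs 5′ to 3′ on the strand of the gene, with its GRCr8 position, and capitals mark matches to the response element core on either strand.
Apol9a (chr7:111028164-111028463, minus strand): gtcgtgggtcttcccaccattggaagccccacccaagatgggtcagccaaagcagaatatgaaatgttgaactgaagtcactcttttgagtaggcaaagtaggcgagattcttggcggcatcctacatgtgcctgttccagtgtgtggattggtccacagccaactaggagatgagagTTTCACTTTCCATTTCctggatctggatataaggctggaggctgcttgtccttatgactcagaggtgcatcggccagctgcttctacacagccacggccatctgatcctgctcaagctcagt
Isg20 (chr1:142239809-142240108, plus strand): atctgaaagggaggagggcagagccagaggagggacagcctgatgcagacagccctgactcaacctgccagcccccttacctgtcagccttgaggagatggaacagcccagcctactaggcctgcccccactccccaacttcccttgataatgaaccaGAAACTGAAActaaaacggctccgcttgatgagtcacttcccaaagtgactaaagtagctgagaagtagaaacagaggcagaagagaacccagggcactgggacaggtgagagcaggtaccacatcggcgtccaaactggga
Rsad2 (chr6:48788071-48788370, minus strand): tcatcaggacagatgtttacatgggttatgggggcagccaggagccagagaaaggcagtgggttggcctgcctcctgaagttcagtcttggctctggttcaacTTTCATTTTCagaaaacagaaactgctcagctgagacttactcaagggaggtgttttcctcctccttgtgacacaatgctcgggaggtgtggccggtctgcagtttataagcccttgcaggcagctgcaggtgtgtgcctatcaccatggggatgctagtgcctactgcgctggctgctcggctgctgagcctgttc
Irf7 (chr1:205799974-205800273, minus strand): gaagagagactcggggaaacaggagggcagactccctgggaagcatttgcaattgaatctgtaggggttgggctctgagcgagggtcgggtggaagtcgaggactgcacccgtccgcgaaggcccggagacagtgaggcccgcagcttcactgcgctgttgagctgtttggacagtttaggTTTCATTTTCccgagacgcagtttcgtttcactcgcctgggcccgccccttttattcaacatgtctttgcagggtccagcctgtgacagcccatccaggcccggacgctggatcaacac
Ifi27 (chr6:128355062-128355361, plus strand): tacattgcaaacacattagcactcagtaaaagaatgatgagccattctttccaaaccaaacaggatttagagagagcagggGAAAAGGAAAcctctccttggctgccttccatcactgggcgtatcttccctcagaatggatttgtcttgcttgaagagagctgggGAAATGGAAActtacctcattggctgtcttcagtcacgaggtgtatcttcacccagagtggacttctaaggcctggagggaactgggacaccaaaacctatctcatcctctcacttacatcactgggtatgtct
Oas1a (chr12:41330216-41330515, plus strand): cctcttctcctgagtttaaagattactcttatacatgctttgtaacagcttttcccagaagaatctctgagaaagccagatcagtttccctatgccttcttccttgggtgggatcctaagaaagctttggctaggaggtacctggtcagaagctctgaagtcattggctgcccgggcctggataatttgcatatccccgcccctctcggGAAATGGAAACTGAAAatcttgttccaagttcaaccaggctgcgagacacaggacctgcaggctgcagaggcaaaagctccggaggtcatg

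**Figure D2:**
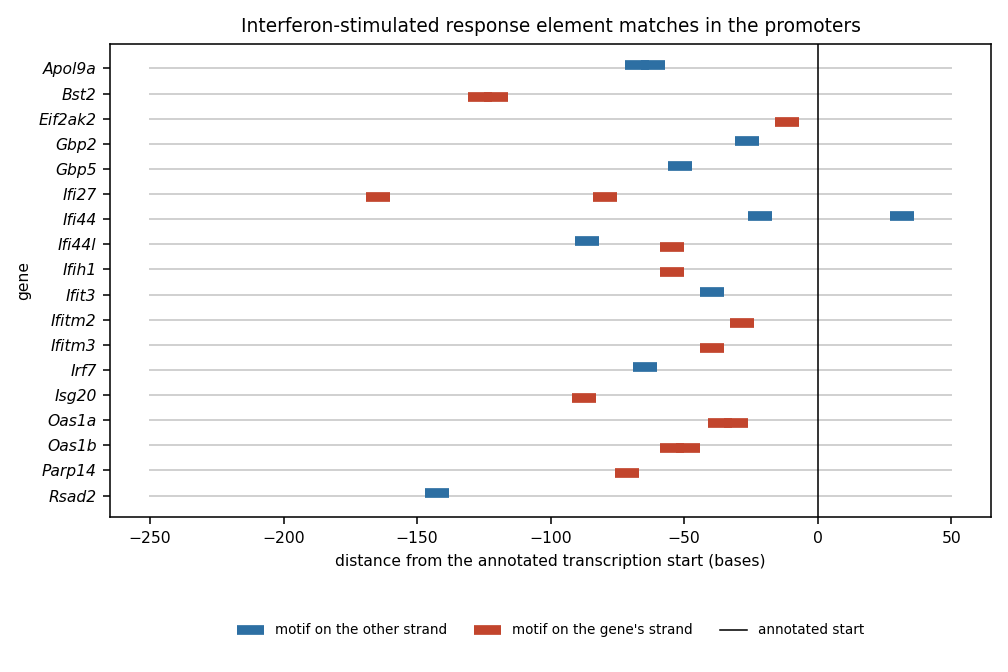
Positions of matches to the response element core, as distance in bases from the annotated start, in the 18 interferon gene promoters that hold one. Matches on the strand of the gene and on the other strand are drawn in separate colours, and 20 of 25 begin within 100 bases before the start.

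The signalling kinases were measured on both arrays. Jak1, which is bound to the Ifnar2 chain, had an intensity of 95.9 on the OGD array and 100.2 on the resting array. Tyk2, the partner kinase bound to Ifnar1, had 37.7 on the OGD array and 46.7 on the resting array, which is 1.24-fold lower. Among measured genes 2.35% had a difference at least as low as that of Tyk2. Stat2, the transcription factor particular to type I and type III interferon signalling, had 38.96 on the OGD array and 33.6 on the resting array, 1.16-fold higher. Its other probe set read 22.1 on both arrays, a difference of 0. Stat2 was the only interferon gene with a second probe set above the array median, and its 2 probe sets did not show the same difference.

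The interferon regulatory factors showed no common direction. Irf7, the induced factor that amplifies the type I response, had 269 on the OGD array and 317 on the resting array, 1.18-fold lower. Irf3, which is present without induction and is activated by viral sensing, had 202 on the OGD array and 189 on the resting array, a difference of 0.096. Irf1, an activator induced strongly by interferon gamma, had 23.8 on the OGD array and 23.7 on the resting array, a difference of 0.0024 that became negative with quantile scaling (-0.0047) or removal of the brightness trend (-0.0040). Irf2, which competes with Irf1 for the same sites, had 23.6 on the OGD array and 19.5 on the resting array. The resting value was under the floor, so Irf2 was at least 1.204-fold higher. Its other probe sets lay under the floor, 1 with a lower and 1 with a higher value on the OGD array. Irf9, the DNA-binding partner of Stat2, had 11.6 on the OGD array and 12.1 on the resting array and was not above the floor on either.

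Of the 3 sensors of cytosolic RNA, Dhx58 was above the floor. Dhx58 encodes LGP2, which modulates the other sensors, and had 44.6 on the OGD array and 39.8 on the resting array, 1.12-fold higher. Its probe set carries a suffix that marks probes shared with other transcripts, and 2 further probe sets lay near an intensity of 5. Ddx58, which encodes RIG-I, had 5.77 on the OGD array and 4.98 on the resting array. Ifih1, which encodes MDA5, had 12.5 on the OGD array and 12.6 on the resting array. Neither is given a fold, since both values of each were below the floor.

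The 3 Ifit genes encode proteins that bind foreign RNA or block its translation. Ifit1 had 69.7 on the OGD array and 56.2 on the resting array, 1.24-fold higher, and 2.06% of measured genes were at least as high. This was the highest difference among the 24 genes. Ifit2 had 9.73 on both arrays, and Ifit3 had 8.27 on the OGD array and 9.27 on the resting array. These 2 were below the floor, so the direction of Ifit1 was not repeated by a second measured gene of the family.

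Effectors that act on RNA or nucleotides were mostly lower, with 5 of 6 measured genes below 0, beside 51.3% of all measured genes. Isg20, an exonuclease that degrades single-stranded RNA, had 25.9 on the OGD array and 34.0 on the resting array, 1.31-fold lower. Rsad2, which encodes the antiviral radical SAM enzyme viperin, had 24.5 on the OGD array and 30.8 on the resting array, 1.25-fold lower. Among measured genes 0.804% were at least as low as Isg20 and 1.88% at least as low as Rsad2. Cmpk2, a mitochondrial nucleotide kinase, had 37.7 on the OGD array and 44.7 on the resting array, 1.19-fold lower. Its other probe set, below the floor, had 6.23 on the OGD array and 5.24 on the resting array. Cmpk2 and Rsad2 are neighbouring genes in the RefSeq annotation and were the only neighbours among these genes that were both above the floor. Viperin uses CTP, and Cmpk2 is known to act beside it.

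The remaining enzymes of this class were closer on the 2 arrays. Samhd1, which hydrolyses deoxynucleotides and so restricts retroviruses, had 49.3 on the OGD array and 52.9 on the resting array. Oasl, of the 2′-5′ oligoadenylate synthetase family, had 26.8 on the OGD array and 28.3 on the resting array. Oas1a of the same family was the exception in direction, with 49.5 on the OGD array and 43.0 on the resting array, 1.15-fold higher. Oas1b had 5.04 on the OGD array and 5.65 on the resting array, and Eif2ak2, which encodes the RNA-activated kinase PKR, had 3.72 on the OGD array and 3.35 on the resting array. Both of these were below the floor.

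Genes of membrane-bound restriction factors were lower in all 3 measured cases, where 51.3% of all measured genes were lower. Bst2, which encodes tetherin and holds budding virions at the cell surface, had 158 on the OGD array and 182 on the resting array, 1.15-fold lower. Ifitm2, one of the proteins that block fusion of viruses with endosomes, had 176 on the OGD array and 205 on the resting array, 1.16-fold lower. Ifitm3 had 19.2 on the OGD array and 20.3 on the resting array, at least 1.03-fold lower. Ifitm1 had 8.13 on the OGD array and 9.42 on the resting array, below the floor. The Ifitm genes are close relatives, and whether their probe sets separate them was not tested.

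The 3 antiviral GTPases of the list with a probe set were below the floor on both arrays, and the fourth, Gbp5, had no probe set. Mx1 had 4.38 on the OGD array and 4.64 on the resting array. Mx2 had 8.21 on the OGD array and 9.29 on the resting array in its brighter probe set. Gbp2, a guanylate-binding protein that attacks pathogen membranes, had 7.06 on the OGD array and 7.44 on the resting array. These levels are below the median of each array, and a value below it does not show that the transcript was absent.

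The ISG15 system attaches a ubiquitin-like protein to newly made proteins during infection. Isg15, the modifier itself, had 29.4 on the OGD array and 33.0 on the resting array, 1.12-fold lower. Usp18, which removes Isg15 and also dampens the interferon receptor, had 56.5 on the OGD array and 62.9 on the resting array, 1.11-fold lower. Both the modifier and its protease were thus slightly lower. Parp9, an ADP-ribosyltransferase family member that works with a ubiquitin ligase, had 42.2 on the OGD array and 45.9 on the resting array. Parp14, a mono-ADP-ribosyltransferase, had 66.1 on the OGD array and 57.8 on the resting array, 1.14-fold higher. Its other probe set, near an intensity of 5, was also higher, with a difference of 0.19. Averaged on the log2 scale over both probe sets and floored, the difference of Parp14 was 0.0060.

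Apol9a, of the apolipoprotein L family, had the largest difference of the interferon genes in either direction. It had 18.1 on the OGD array and 30.8 on the resting array, and the OGD value was under the floor, so it was at least 1.57-fold lower. Among measured genes 0.0313% were at least as low. Without a floor the difference was -0.77, and with a pseudocount it was -0.56, inside the 1.5-fold threshold of 0.58. It rests on 1 probe set. Ifi27, a small interferon-induced membrane protein, had 71.6 on the OGD array and 61.1 on the resting array, 1.17-fold higher. Ifi44 had 5.50 on the OGD array and 4.97 on the resting array, and Ifi44l had 5.41 on the OGD array and 5.79 on the resting array, both below the floor.

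**Figure D3:**
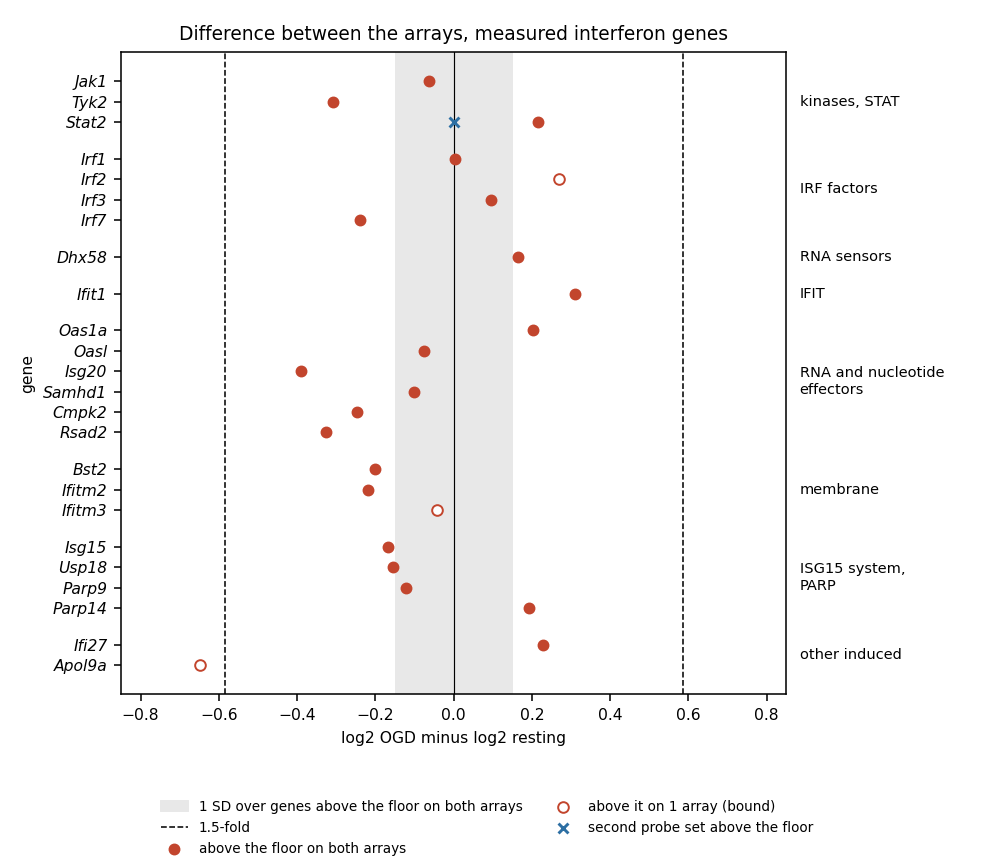
Differences (log2 OGD minus log2 resting) of the 24 measured interferon genes by role, with open points for genes above the floor on 1 array, a cross for the second probe set of Stat2, and grey for 1 SD (0.148) across genes above the floor on each of the arrays. Apol9a at -0.65 is the one point outside the dashed 1.5-fold lines, and Ifit1 at 0.31 is the highest.

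By role, the 7 measured kinases, Stat2 and regulatory factors had a median difference of 0.0024, with 3 lower and 4 higher. The 17 measured sensors and effectors had a median of -0.12, with 12 lower and 5 higher. Over all measured genes 51.3% were lower and 42.8% higher. This contrast between roles was not tested. The spread of differences across genes above the floor on each of the arrays narrowed with brightness, with an SD of 0.169 up to an intensity of 39.2, 0.152 up to 78.5, 0.132 up to 157 and 0.118 above that. Set against the SD of its own brightness class, the difference of 14 of the 21 interferon genes above the floor on both arrays was beyond 1 SD, as were 30.3% of all such genes. The differences of 4 of the 21 genes were beyond 2 SD (Isg20, Ifit1, Tyk2 and Irf7), against 5.08% of all such genes. Results for Isg20 and Ifit1 were known beforehand, so this comparison is not independent of the data. Lower and higher genes both contributed, with Ifit1 the higher one of these 4. These distances were taken from 0, while the brightest class, which holds Irf7, had a median difference of -0.036. Irf7 passed 2 SD narrowly, at -0.24, and would not pass it if measured from that median. With the brightness trend removed its difference was -0.21. Across all genes above the floor on both arrays the SD of the differences was 0.148. Between probe sets of the same gene the SD was about as large, 0.147, taken over 1902 genes, which is the only error that could be estimated here. Of the 24 differences, 22 remained within this SD of the value given under every scaling, floor and probe set choice tried that could be applied to them. The exceptions were Parp14 with the mean over probe sets and Stat2 with its next brightest probe set. Many of these choices could not change a difference. Centring removed a shift of 0, a lower floor leaves genes above the floor on both arrays as they are, and 28 interferon genes had 1 probe set. The count of 22 therefore does not measure how repeatable the differences are.

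**Figure D4:**
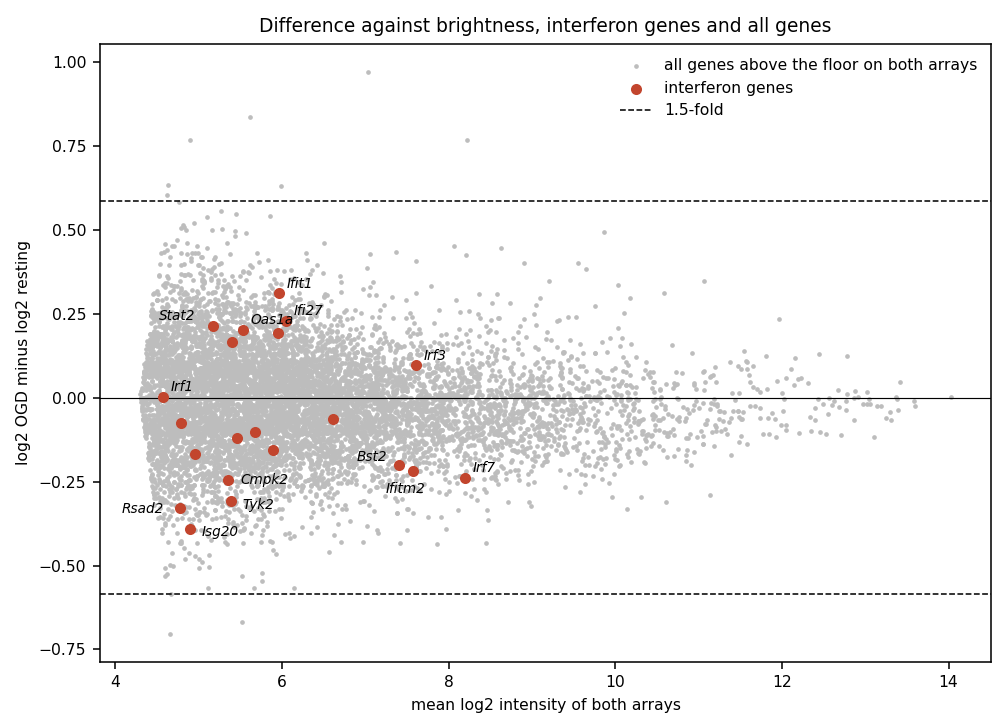
Difference (log2 OGD minus log2 resting) against mean log2 intensity of both arrays for all 9168 genes above the floor on both (grey) and the 21 interferon genes among them (red). Isg20, Rsad2 and Tyk2 lie low in the dim part of the cloud, and Irf7, Ifitm2 and Bst2 lie low among brighter genes.

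The rest of the pathway was taken from 5 further lists chosen by function. In these lists 0 genes differed by at least 1.5-fold in either direction. Of 10 genes for receptors and ligands 4 were measured, with a median difference of 0.23. All 4 were higher on the OGD array, where 42.8% of all measured genes were higher, though Il10rb differed by only 0.019. Ifngr2, a chain of the interferon gamma receptor, had 36.9 on the OGD array and 25.7 on the resting array, 1.43-fold higher, and Ifnar1 had 102 on the OGD array and 86.0 on the resting array, 1.19-fold higher. The other probe sets of both genes were at or near the floor or below it and did not repeat these differences, at -0.078 for Ifngr2 and between -0.32 and 0.15 for Ifnar1. For Ifnar2 the other probe set, below the floor, was also not higher (-0.037). The ligand genes Ifnb1 and Ifng were below the floor, Ifnb1 at 12.8 on the OGD array and 13.7 on the resting array and Ifng at 4.89 on the OGD array and 3.59 on the resting array.

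Among 14 further genes of JAK-STAT signalling and its feedback 9 were measured, 4 higher, 4 lower and 1 equal, with a median of 0. Jak2, the kinase of the interferon gamma receptor, had 27.3 on the OGD array and 38.0 on the resting array, 1.39-fold lower, and Irf2bp1, a partner of Irf2, was 1.19-fold higher. Of the adaptors and kinases of nucleic acid sensing 9 of 17 were measured, with a median of -0.085. Of these, 2 were higher, 6 lower and 1 equal, where 51.3% of all measured genes were lower. Sting1, the adaptor of DNA sensing, was at least 1.18-fold lower, and Traf3, which links adaptors to the kinases of Irf3, was 1.11-fold lower.

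Antigen presentation genes that interferon induces had a median of -0.14, with 7 of 11 measured genes lower, beside 51.3% of all measured genes. One of the 7, Psme1, was lower in its brightest probe set (-0.30) and higher in a second one above the floor (0.12). Psmb9 and Psmb10, catalytic subunits of the immunoproteasome, were both 1.35-fold lower, Psmb9 with 199 on the OGD array and 269 on the resting array. Of 28 other measured interferon-induced genes 17 were lower, 9 higher and 2 equal, with a median of -0.020. Ogfr was 1.30-fold lower and Casp4, an inflammatory caspase, was 1.27-fold higher. Interferon-induced genes outside the 39 therefore had values on both sides as well.

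The label of the cells was checked against markers. Of 16 microglial and macrophage markers 15 had a probe set and 13 were above the floor on both arrays. The brightest were Trem2 at 583 on the OGD array and 604 on the resting array and Cd68 at 360 on the OGD array and 371 on the resting array. The others of the 13 were dimmer, on the OGD array from 23.1 (Tmem119) to 64.4 (Cd14). Csf1r was above the floor on the resting array only, and Fcer1g was below it on both. Some markers of other cells lay in this range or above it, such as the neuronal Syn1 at 56.8 and Elavl3 at 108 on the OGD array. Of the 14 measured markers 13 were lower on the OGD array, C1qc being the exception, where 51.3% of all measured genes were lower, and 0 differed by 1.5-fold. The median difference of these markers was -0.089, beside -0.089 for the 24 interferon genes. Summed over the 15 markers with a probe set, intensity was 1428 on the OGD array and 1489 on the resting array, most of it from Trem2 and Cd68. The part of these small differences in those of the interferon genes was not tested. In RNA from a whole culture, fewer cells of a type and less RNA per cell cannot be told apart. Of markers of other cells, 3 of 7 astrocyte, 3 of 7 oligodendrocyte, 3 of 7 neuronal, 2 of 8 fibroblast and endothelial and 2 of 4 lymphocyte and granulocyte genes with a probe set were above the floor on both arrays. Summed over every marker with a probe set, those below the floor included, intensities were 140 on the OGD array and 118 on the resting array for astrocytes. They were 143 on the OGD array and 141 on the resting array for the oligodendrocyte lineage, and 234 on the OGD array and 231 on the resting array for neurons. They were 163 on the OGD array and 142 on the resting array for fibroblasts and endothelium, and 78.0 on the OGD array and 76.4 on the resting array for lymphocytes and granulocytes. All 3 measured astrocyte markers were higher on the OGD array, with a median difference of 0.43, where 42.8% of all measured genes were higher. Gfap had 36.9 on the OGD array and 27.4 on the resting array and Slc1a2 had 32.0 on the OGD array and 23.8 on the resting array, each 1.35-fold higher. Both measured fibroblast and endothelial markers were also higher, with a median of 0.25. Markers below the floor on both arrays included Aqp4, Mog, Rbfox3, Pecam1, Lum and Cd79b, and no marker was listed at 0. Plasmacytoid dendritic cells, the strongest makers of type I interferon, were represented by Tcf4, Irf8 and Bst2. Of these genes Irf8 was below the floor on both arrays, and Bst2 is itself in the interferon gene list. Their summed intensity was 323 on the OGD array and 359 on the resting array, most of it from Tcf4 and Bst2, which other cells also express. The part of these cells in the interferon gene values was not tested.

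**Figure D5:**
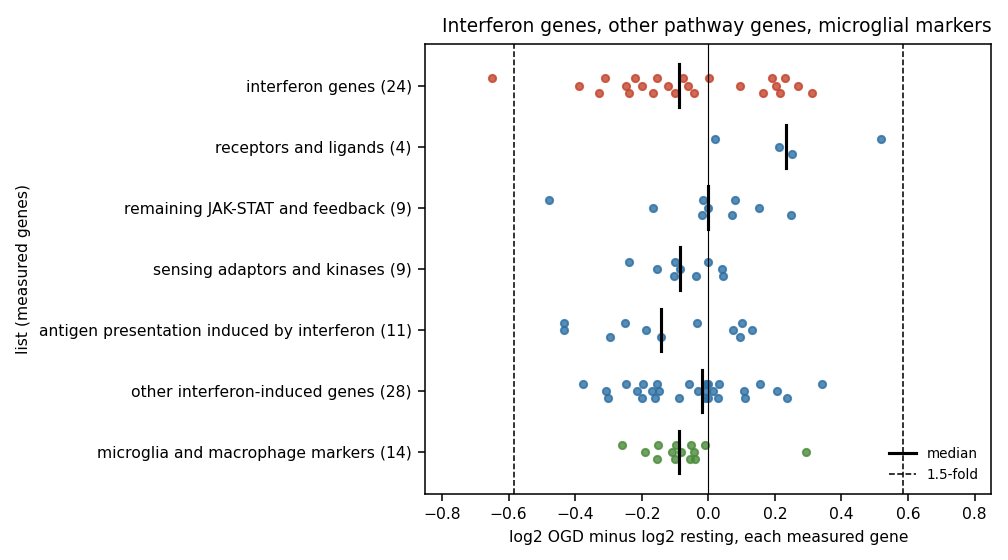
Differences (log2 OGD minus log2 resting) of each measured gene in the interferon list, in 5 further lists of the pathway and among microglial markers, with the median of each as a black bar and the number of genes in brackets. The medians lie at -0.089 for the interferon genes, 0.23 for receptors and ligands and -0.089 for microglial markers, and Apol9a is the one gene outside 1.5-fold.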

How the data were processed

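Rat microglia were measured on 1 OGD and 1 resting array, and groups were taken from the labels. Per the labels' protocols, RNA was extracted with TRIzol, primed with oligo(dT) and transcribed with biotinylated nucleotides. The deposited values are intensities, 1 per probe set on a linear scale that was read from the values. How the authors corrected background, summarised probes and normalized is not given in the sources used here. Quartiles were nearly equal (8.47 and 48.0 on the OGD array, 8.45 and 48.2 on the resting array), so a shift common to most genes could not show.

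Of 31099 probe sets 57 were controls, 20826 named 1 gene, 436 several and 9780 none. Symbols were updated through Entrez IDs to RefSeq of GRCr8 (20758 matched). The floor was each array's median of non-control probe sets. Having 2 arrays limits the precision, and no test was possible. All 39 genes are named, and of other lists the 2 largest differences. Members and lists were chosen with earlier results of these data known, among them those of Apol9a, Isg20, Rsad2, Ifit1 and Stat2. The brightness classes, the 1.2-fold count and the motifs were chosen after the values were seen, as were the other genes named as examples (Ifnb1, Ifng and the cell type markers). Quantile, median and lowess scaling (span 0.3), a floor at the 30th or the 70th percentile or none, other probe set choices, a pseudocount at the 25th percentile and a 2-fold threshold were alternatives. The calculation was tested on simulated arrays. Work was done in Python 3.11.15 with pandas 2.3.3 and statsmodels 0.14.6.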

Additional observations from a re-analysis of the deposited data

How the results depend on the processing

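The median difference of the interferon genes stayed negative, between -0.12 and -0.072, under 9 alternatives. Centring changed no value, because the median shift it removes was 0, and next brightest probe sets gave a value for Stat2 alone, which was 0. The median of the interferon genes lay between -0.10 and -0.076 when each measured gene was left out in turn, a check chosen after seeing the data. The number of interferon genes lower by 1.5-fold was 1 (Apol9a) and became 0 with the floor at the 70th percentile, with genes required to be above the floor on both arrays, with the pseudocount and at 2-fold, and the number higher was 0 throughout. Over all measured genes, 7 higher and 4 lower became 23 and 14 with the floor at the 30th percentile, 4 and 0 with it at the 70th, 35 and 23 without a floor, and 0 and 0 at 2-fold. Next brightest probe sets gave 2 higher and 5 lower among 2074 genes, against the 9580 of the reported counts. The number lower was 2 with genes required to be above the floor on both arrays and 0 with the pseudocount. Of 223 recomputed differences of single interferon genes 221 moved by less than the SD between probe sets, and the sign changed for 1 gene, Irf1. Many of the 223 could not move. This holds for centring, for a lower floor with genes above the floor on both arrays, and for averaging over probe sets with genes that have 1 probe set. No paired analysis was possible because each group has 1 array. The floor limits what can be seen, since 13 of 37 interferon genes (35.1%) were below it on both arrays, as were 32.6% of all genes.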

Other observations

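The deposited intensities have a fine structure across the array that the interferon genes share. Absolute log2 differences, rounded to 5 decimals, recurred in another probe set for 81.1% of the 31099 probe sets, and for 37 of the 48 interferon probe sets (77.1%). How often this would occur by rounding alone was not tested. The value 0.165 was held by Dhx58 as a higher and by Ifit3 and Oas1b as lower differences, and by 170 probe sets of the array in all. Exactly equal intensities on both arrays were found for 2701 probe sets (8.69%), among them 3 of interferon genes (1 each of Stat2, Ifit2 and Dhx58). Counted without leaving out those of equal intensity, 919 probe sets (2.96%) shared a remainder on both arrays. Their intensities left 0.1652 after division into steps of 0.5, with a tolerance of 0.0001. Among these were the probe sets of Ifit1 (69.67 on the OGD array and 56.17 on the resting array), Tyk2 (37.67 on the OGD array and 46.67 on the resting array) and Cmpk2 (37.67 on the OGD array and 44.67 on the resting array). Tyk2 and Cmpk2 had the same OGD value to 6 decimals. Both of the interferon genes beyond 2 SD in the brightness class from 39.2 to 78.5, Ifit1 and Tyk2, are among these 3.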
